A study of Mus musculus with 12 samples.

Results

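The CXC chemokines Cxcl1, Cxcl2, Cxcl5, Cxcl9, Cxcl10, Cxcl12, Cxcl13, Cxcl14 and Cxcl16 were followed in mouse fat, in adipose progenitor preparations and in whole adipose tissue of 2 depots. The 9 genes were chosen by symbol from the probe sets that the array annotation assigns to exactly 1 gene, and all 9 were found, each with 1 such probe set, among 22180 genes measured in this way. The samples were 12 Affymetrix arrays in 4 groups of 3 biological replicates, all from C57BL/6 mice whose age and sex the labels do not give. The groups were adipose progenitors of perigonadal visceral fat (AP VAT), adipose progenitors of inguinal subcutaneous fat (AP SAT), whole visceral adipose tissue (AT VAT) and whole subcutaneous adipose tissue (AT SAT). Progenitors were the stromal-vascular cells left after enzymatic dissociation and bead depletion of lineage-positive blood cells and CD31+ endothelial cells, prepared fresh from the fat of several mice. They are thus what depletion leaves behind, with no positive selection for a progenitor marker. Every AP sample was dissociated and no AT sample was, so handling and cell population cannot be told apart in any AP against AT difference. Values are log2 intensities, so a difference of 1 is a factor of 2 in signal. Differences were tested with limma, and a gene counts as called, higher or lower where its p, adjusted over all 22180 genes (Benjamini-Hochberg), was under 0.05. In bulk RNA, fewer cells of a type and less RNA per cell cannot be told apart either. The labels do not tie arrays to animals, so the spread behind the p-values is that of the samples and may be technical.

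Chemokines of the CXC family are small secreted proteins that steer leukocytes along concentration gradients by binding seven-helix receptors. Cxcl1, Cxcl2 and Cxcl5 carry the glutamate-leucine-arginine (ELR) motif, bind Cxcr2 and draw neutrophils; they are classical targets of NF-kappaB. Cxcl9 and Cxcl10 are induced by interferon and draw activated T cells and NK cells through Cxcr3. Cxcl12 and Cxcl13 are homeostatic: Cxcl12 holds blood stem cells and B-cell precursors in their niches through Cxcr4 and is also bound by the scavenger Ackr3, and Cxcl13 draws B cells into follicles through Cxcr5. Cxcl14 is a conserved, broadly expressed member of the family whose receptor is not settled, and Cxcl16 is made as a membrane protein that binds Cxcr6 and is released by the protease Adam10. In fat, stromal cells as well as macrophages make such chemokines.

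In the RefSeq annotation of GRCm38.p6, Cxcl5, Cxcl1, Cxcl2, Cxcl9, Cxcl10 and Cxcl13 lie in that order on chromosome 5, while Cxcl12 lies on chromosome 6, Cxcl14 on chromosome 13 and Cxcl16 on chromosome 11. RefSeq promoter sequences were at hand for 7 of the 9 genes. The stretches below, each ending at the base before the annotated gene start and written 5′ to 3′ along the gene, are shown because Cxcl1 and Cxcl2, and likewise Cxcl10 and Cxcl9, lie next to each other and had unlike values in the arrays. Capitals mark matches to a kappaB motif, which NF-kappaB binds, or to the interferon-stimulated response element (ISRE), written GAAANNGAAA. Both motifs were searched on both strands of the 250 bases before each start.
Cxcl1, chr5:90891125-90891244, plus strand: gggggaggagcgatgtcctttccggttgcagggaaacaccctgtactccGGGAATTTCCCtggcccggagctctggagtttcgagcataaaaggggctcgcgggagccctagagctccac
Cxcl2, chr5:90903779-90903898, plus strand: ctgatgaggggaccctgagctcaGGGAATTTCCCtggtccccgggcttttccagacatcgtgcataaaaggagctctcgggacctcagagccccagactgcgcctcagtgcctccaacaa
Cxcl10, chr5:92348890-92349139, minus strand: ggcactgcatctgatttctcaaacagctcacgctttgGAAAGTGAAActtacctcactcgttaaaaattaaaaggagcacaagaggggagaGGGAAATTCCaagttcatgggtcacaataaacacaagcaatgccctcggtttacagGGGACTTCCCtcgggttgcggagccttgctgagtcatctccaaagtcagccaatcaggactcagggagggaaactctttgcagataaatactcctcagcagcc
Cxcl9, chr5:92328080-92328329, minus strand: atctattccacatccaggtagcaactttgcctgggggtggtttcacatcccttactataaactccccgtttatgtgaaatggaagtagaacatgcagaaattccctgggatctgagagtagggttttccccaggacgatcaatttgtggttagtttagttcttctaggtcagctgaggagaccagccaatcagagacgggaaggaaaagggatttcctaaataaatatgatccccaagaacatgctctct

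The kappaB motif was found in 3 of the 7 promoters, against 3.9% of 32851 promoters in the table, and the ISRE in 2 of 7, against 2.98%. Counting bases upstream from the start, Cxcl1 held kappaB matches at 71 to 62 on the plus strand and at 70 to 61 on the minus strand, which overlap. Cxcl2 held the same overlapping pair at 97 to 88 and 96 to 87. The longest run that the 120 bases of Cxcl1 and of Cxcl2 share is 14 bases long, GGGAATTTCCCTGG, and it covers both matches. Cxcl10 held kappaB matches at 159 to 150 and at 103 to 94, and an ISRE at 213 to 204. Cxcl14 held an ISRE at 172 to 163. No match to either motif was in the windows of Cxcl9, Cxcl12 or Cxcl13. A match is a string of letters in a window and says nothing of binding in these samples.

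The arrays were alike in scale, with medians between 4.49 and 4.67, and values of all genes correlated at 0.9869 to 0.9936 within groups and at 0.9104 to 0.9833 between them. The AP label was checked against markers. Of all genes, 15.8% were called higher and 16.8% lower in AP than in AT in VAT, and 16.1% and 16.3% in SAT. Between depots, 3.03% were called higher in VAT in AP and 2.8% in AT. All 10 adipocyte markers were lower in AP than in AT in both depots, as were all 10 macrophage markers, while of 11 progenitor markers 10 were higher in AP in VAT and 11 in SAT. The summed intensity of the adipocyte markers (log2) was 11.61 to 11.83 in AP VAT and 11.75 to 11.89 in AP SAT, against 15.02 to 15.08 in AT VAT and 14.91 to 14.94 in AT SAT. Of 10 blood endothelial markers, 8 were lower and 1 higher in AP in each depot, and of 4 lymphatic ones 2 were lower and 1 higher. The lymphatic sums were 10.06 to 10.16 in AP VAT and 9.87 to 10.25 in AP SAT, against 9.96 to 10.41 in AT VAT and 8.91 to 10.23 in AT SAT. Pericyte and smooth muscle markers were higher in AP (9 of 9 in VAT and 7 of 9 in SAT), and all 9 mesothelial markers were higher in VAT than in SAT, in AP and in AT alike. The mesothelial sums were 12.11 to 12.58 in AP VAT and 11.59 to 11.90 in AT VAT. All 14 genes of a dissociation and immediate early response list were higher in AP than in AT in both depots, with summed intensities (log2) of 14.71 to 14.84 in AP VAT and 14.81 to 14.93 in AP SAT, against 10.48 to 10.59 in AT VAT and 10.22 to 10.69 in AT SAT. The part of that response in the chemokine values was not tested.

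**Figure D1:**
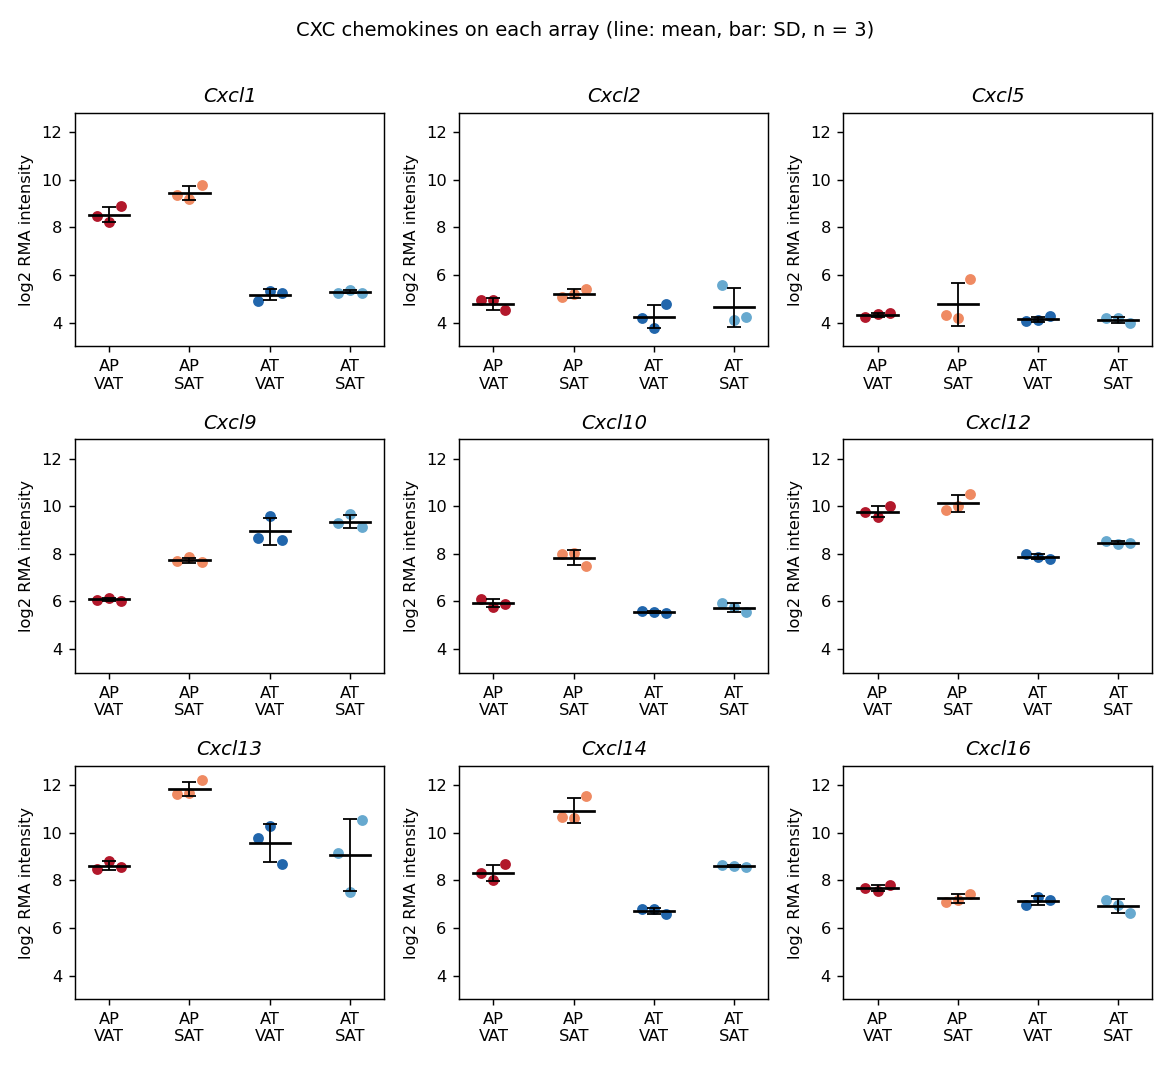
Log2 intensity of the 9 CXC chemokines on each of the 12 arrays, 1 panel per gene. Groups from left to right are AP VAT, AP SAT, AT VAT and AT SAT. Points are arrays, horizontal lines are group means and bars are the SD. Cxcl1 and Cxcl12 were higher on every AP array than on any AT array, Cxcl9 was lower, and Cxcl13 and Cxcl14 were highest on the 3 AP SAT arrays.

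Among the ELR chemokines Cxcl1 stood far above the whole tissue in progenitors of both depots, whereas Cxcl2 and Cxcl5 lay low and passed the test in neither. Cxcl1 measured 8.49, 8.23 and 8.88 in AP VAT and 9.37, 9.19 and 9.77 in AP SAT, against 4.90, 5.34 and 5.26 in AT VAT and 5.25, 5.36 and 5.26 in AT SAT. All 6 AP arrays lay above all 6 AT arrays, and the AT arrays of the depots overlapped. The difference between AP and AT was 3.37 in VAT (SE 0.173, 10.3-fold, limma adjusted p = 9.02e-10) and 4.15 in SAT (SE 0.173, 17.8-fold, adjusted p = 8.256e-11). By size these were rises 24 and 15 among the 22180 genes. Between depots, Cxcl1 was lower in AP VAT than in AP SAT by 0.91 (95% interval of the difference -1.28 to -0.54, adjusted p = 0.003777), without overlap of the arrays. In whole tissue the depot difference was -0.12 (SE 0.173, adjusted p = 0.8119), and the difference between these depot differences, -0.79, had an adjusted p of 0.1324.

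Cxcl2 measured 4.93, 4.95 and 4.51 in AP VAT and 5.06, 5.21 and 5.40 in AP SAT, against 4.21, 3.79 and 4.77 in AT VAT and 5.57, 4.13 and 4.22 in AT SAT. The first AT SAT array was the highest of all 12, the other AT SAT arrays were among the lowest, and AP and AT overlapped in both depots. AP minus AT was 0.54 in VAT (95% interval -0.12 to 1.20, adjusted p = 0.2075) and 0.58 in SAT (-0.08 to 1.24, adjusted p = 0.1814). That one AT SAT array decided the second value: without it the SAT difference was 1.05, with an adjusted p of 0.00217. The same array had the highest value of its group for Cxcl3 (4.38, against 3.20 and 3.19 on the other AT SAT arrays) and Cxcr2 (6.14, against 5.31 and 5.17). Of 13 marker lists, its sum was the highest of the group for neutrophils (7.54), dendritic cells (7.80), T and NK cells (9.14) and the dissociation list (10.69). It was the lowest for B cells (6.53), adipocytes (14.91), blood endothelium (11.24) and follicular dendritic cells with lymph node stroma (8.30). The part of any of these in the Cxcl2 value was not tested. Cxcl5 measured 4.23, 4.38 and 4.39 in AP VAT and 4.31, 4.19 and 5.82 in AP SAT, against 4.07, 4.11 and 4.27 in AT VAT and 4.20, 4.20 and 3.97 in AT SAT. Apart from the third AP SAT array, these values lay between 3.97 and 4.39, near a floor of 4.09. This floor is the 40th percentile of all values over probe sets and arrays, and a group mean below it counts as near background. AP minus AT was 0.18 in VAT (adjusted p = 0.6798) and 0.65 in SAT (SE 0.291, adjusted p = 0.1088), and the second of these rests on the 1 high array: it was 0.13 without the third AP SAT array, and had an adjusted p of 0.0449 or 0.0234 without the first or the second. The promoters of Cxcl1 and Cxcl2 thus share their kappaB matches, while Cxcl1 was called in both depots and Cxcl2 in neither, a difference between genes that was not tested.

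The interferon-induced pair went opposite ways. Cxcl9 was lower in progenitors than in whole tissue in both depots, and Cxcl10 was higher in SAT. Cxcl9 measured 6.08, 6.14 and 6.03 in AP VAT and 7.68, 7.86 and 7.66 in AP SAT, against 8.67, 9.59 and 8.58 in AT VAT and 9.29, 9.66 and 9.12 in AT SAT. The groups followed the order AT SAT, AT VAT, AP SAT, AP VAT from the highest, and only the whole tissues overlapped. AP minus AT was -2.86 in VAT (SE 0.209, 7.28-fold lower, limma adjusted p = 4.11e-08) and -1.62 in SAT (SE 0.209, 3.08-fold lower, adjusted p = 1.529e-05). Beside this, summed macrophage markers, a cell type known to make Cxcl9, ranged from 8.76 to 8.99 in AP VAT and from 8.62 to 8.90 in AP SAT, against 12.01 to 12.09 in AT VAT and 11.85 to 12.50 in AT SAT (log2 of summed intensity). Their part in the Cxcl9 values was not tested. Among AP arrays, Cxcl9 was lower in VAT than in SAT by 1.65 (SE 0.209, adjusted p = 0.0001056).

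Cxcl10 measured 6.10, 5.78 and 5.91 in AP VAT and 7.98, 8.05 and 7.47 in AP SAT, against 5.61, 5.57 and 5.53 in AT VAT and 5.93, 5.75 and 5.55 in AT SAT. The 3 AP SAT arrays stood alone at the top, and AP VAT overlapped with AT SAT. AP exceeded AT in SAT by 2.09 (SE 0.148, 4.26-fold, adjusted p = 2.874e-08). In VAT the AP arrays lay above the AT arrays without overlap, but the difference of 0.36 (SE 0.148) did not pass the test (adjusted p = 0.07795). It passed without the third AP SAT array (0.0328) and with the compared groups alone (0.0429). Under scaling to housekeeping genes the difference was 0.73 (limma adjusted p = 0.00172), and that scaling called 53.7% of all genes higher in AP in VAT. AP VAT was lower than AP SAT by 1.90 (SE 0.148, 3.74-fold, adjusted p = 7.764e-07), and the whole tissues differed by -0.17 (adjusted p = 0.6527). Of the 4 promoters printed above, that of Cxcl10 was the one with matches to both motifs.

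Of the homeostatic members, Cxcl12 was higher in progenitors of both depots at similar levels. Cxcl12 measured 9.74, 9.55 and 10.02 in AP VAT and 9.82, 10.00 and 10.53 in AP SAT, against 7.99, 7.85 and 7.78 in AT VAT and 8.53, 8.42 and 8.45 in AT SAT. Every AP array lay above every AT array. AP minus AT was 1.90 in VAT (SE 0.161, 3.72-fold, limma adjusted p = 2.147e-07) and 1.65 in SAT (SE 0.161, 3.14-fold, adjusted p = 8.779e-07). VAT was lower than SAT by 0.59 in whole tissue (SE 0.161, adjusted p = 0.04904), close to the threshold and lost in 8 of the 12 fits that leave out 1 array (each AT array, AP SAT replicate 2 and AP VAT replicate 1, with adjusted p up to 0.157), while in AP the depot difference was -0.35 (95% interval -0.69 to -0.0037, adjusted p = 0.3178).

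Cxcl13 showed the widest gap between the depots' progenitors. It measured 8.48, 8.82 and 8.54 in AP VAT and 11.64, 11.68 and 12.19 in AP SAT, against 9.77, 10.26 and 8.70 in AT VAT and 9.15, 7.52 and 10.55 in AT SAT. The AP SAT arrays lay above all others, and AP VAT overlapped with both whole tissues. AP VAT was lower than AP SAT by 3.22 (SE 0.532, 9.34-fold, adjusted p = 0.00117), fall 5 by size among all genes. AP exceeded AT in SAT by 2.76 (SE 0.532, adjusted p = 0.0006797), and in VAT AP minus AT was -0.96 (95% interval -2.10 to 0.17, adjusted p = 0.1904). The pooled SD of Cxcl13 within groups, 0.875, was larger than that of 99.9% of genes.

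The wide Cxcl13 values of whole tissue were set beside the marker lists, each taken as the log2 of its summed intensity. With 3 arrays only 6 orders are possible, so a list can share the order of Cxcl13 without any link to it. Of 13 lists, 6 ordered the AT VAT arrays as Cxcl13 did (9.77, 10.26 and 8.70): B cells (7.55, 7.77 and 6.88), T and NK cells (8.07, 8.77 and 7.92), neutrophils, dendritic cells, blood endothelium, and pericytes with smooth muscle. In AT SAT, where Cxcl13 was 9.15, 7.52 and 10.55, 3 of the 13 lists had its order. These were lymphatic endothelium (9.53, 8.91 and 10.23), progenitors (13.44, 13.34 and 14.08) and macrophages (12.30, 11.85 and 12.50), while the B-cell sums were 6.53, 7.21 and 6.66. No list had the order of Cxcl13 in both tissues. Of the 4 measured markers of follicular dendritic cells and lymph node stroma, Mfge8 was higher in AP by 1.29 in VAT and by 1.60 in SAT, and Cr2, near background in every AP array, was lower in AP in VAT (-0.55, adjusted p = 0.006059) and differed by -0.03 in SAT. Between depots, 2 of the 4 were higher and 0 lower in VAT in whole tissue, and 0 were called in AP. Of all genes, 2.8% were higher and 1.75% lower in VAT in whole tissue, and 5.64% were called in AP. The summed level of the 4 markers was 8.85 to 8.94 in AT VAT and 8.30 to 8.50 in AT SAT. In AP it was 9.93 to 10.20 in VAT and 9.76 to 9.92 in SAT. Of the 4 markers, 2 had a mean near background in AP VAT, in AP SAT and in AT SAT, and 1 in AT VAT. The inguinal depot holds a lymph node, and the part of lymph node tissue or of any of these cell types in the Cxcl13 values was not tested.

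Cxcl14 was the only member that differed between the depots by over 1.5 log2 units in both progenitors and tissue. It measured 8.30, 8.0 and 8.67 in AP VAT and 10.66, 10.61 and 11.52 in AP SAT, against 6.78, 6.79 and 6.57 in AT VAT and 8.64, 8.60 and 8.57 in AT SAT. Both VAT groups lay below their SAT counterparts, both AP groups lay above their tissues, and AP VAT overlapped with AT SAT. VAT was lower than SAT by 2.61 in AP (SE 0.206, 6.09-fold, limma adjusted p = 8.683e-07) and by 1.89 in AT (SE 0.206, 3.71-fold, adjusted p = 4.356e-05), and the difference between these, -0.72, had an adjusted p of 0.281. AP exceeded AT by 1.61 in VAT (SE 0.206, adjusted p = 1.621e-05) and by 2.33 in SAT (SE 0.206, adjusted p = 3.12e-07). Cxcl14 spanned 4.95 log2 units over the 12 arrays, the most of the 9 genes.

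Cxcl16, the membrane-anchored member, had the narrowest range over the 12 arrays, 1.21. It measured 7.66, 7.55 and 7.82 in AP VAT and 7.10, 7.18 and 7.43 in AP SAT, against 6.96, 7.32 and 7.16 in AT VAT and 7.19, 6.97 and 6.61 in AT SAT. AP VAT was the highest group and lay apart from the other 3, which overlapped. AP exceeded AT in VAT by 0.53 (SE 0.149, adjusted p = 0.012), and without the first AT VAT array the adjusted p was 0.0626. AP minus AT in SAT was 0.31 (adjusted p = 0.1324, or 0.0424 without the first AT SAT array). Cxcl16 had the one positive depot difference in AP, 0.44 (SE 0.149), which did not pass the test (adjusted p = 0.1212) but did under the housekeeping scaling (0.57, adjusted p = 0.0241).

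In counts, 4 of the 9 chemokines were higher and 1 lower in AP than in AT in VAT, where 32.6% of all genes were called in either direction, 15.8% higher and 16.8% lower. In SAT 5 were higher and 1 lower, against 32.4% of all genes called, 16.1% higher and 16.3% lower. The arrays of AP and AT did not overlap for 6 members in each depot, as for 40.9% of all genes in VAT and 44.6% in SAT. The median difference of the 9 was 0.53 in VAT and 1.65 in SAT, against 0.03 over all genes in each. Averaged over the depots 5 were higher and 1 lower (background 42.5%, of which 22.0 percentage points higher and 20.5 lower), and Cxcl2 narrowly missed the threshold (0.56, adjusted p = 0.05053).

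**Figure D2:**
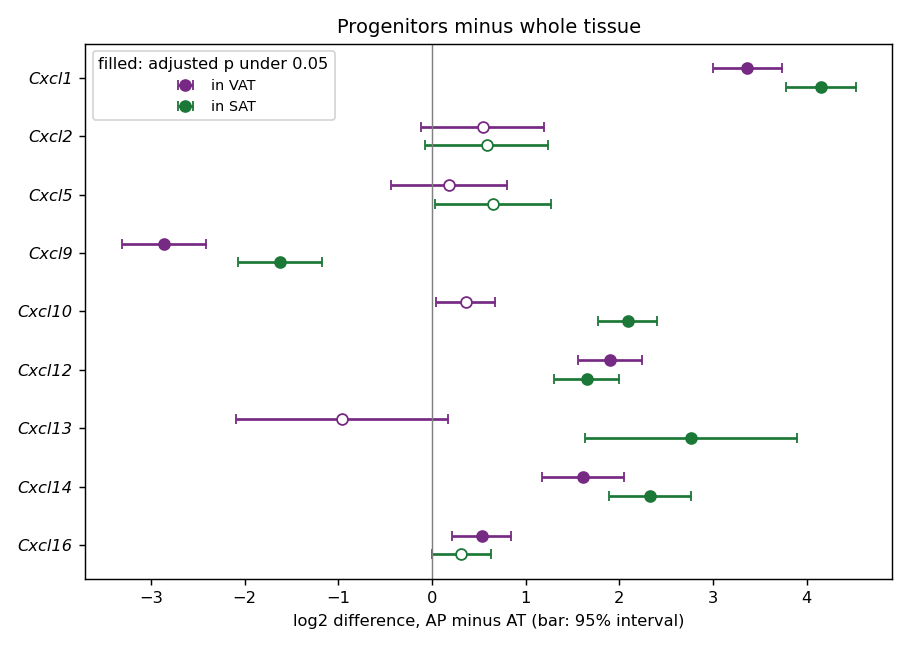
Log2 difference AP minus AT for each chemokine in VAT and in SAT, with 95% intervals from the limma fit; filled points have an adjusted p under 0.05. Cxcl1, Cxcl12 and Cxcl14 were higher and Cxcl9 lower in AP in both depots, while Cxcl10 and Cxcl13 were called in SAT alone.

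Between depots the progenitors showed 5 of 9 chemokines lower in VAT (Cxcl1, Cxcl9, Cxcl10, Cxcl13 and Cxcl14) and 0 higher, where 5.64% of all genes were called in limma, 2.6% lower and 3.03% higher. The arrays did not overlap for 7 of the 9, against 20.4% of all genes, and the median difference was -0.91, against 0 over all genes. The genes outside that group included Cxcl2 (-0.43, adjusted p = 0.6166) and Cxcl5 (-0.44, adjusted p = 0.5631). In whole tissue the values of Cxcl9 differed by -0.41 between VAT and SAT (adjusted p = 0.3669), and by -0.73 (adjusted p = 0.00933) without the second AT VAT array. There 2 of 9, Cxcl12 and Cxcl14, were lower in VAT and 0 higher, against 4.55% of all genes, 1.75% lower and 2.8% higher; 2 members had arrays without overlap, against 18.1% of all genes. The comparisons of AP with AT and of VAT with SAT share arrays, so their values are given side by side and were not tested against each other.

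Whether the depot difference was unequal in progenitors and tissue was tested as an interaction, in which 2.15% of all genes were called, 1.16% with a negative and 0.987% with a positive value. It was negative for Cxcl13 (-3.73, SE 0.752, adjusted p = 0.01715, or 0.121 with a trended and robust variance), Cxcl10 (-1.73, SE 0.210, adjusted p = 0.000523) and Cxcl9 (-1.24, SE 0.295, adjusted p = 0.04154). For each of these, VAT minus SAT was below that of whole tissue in AP. The Cxcl13 value was larger in size than all but 2 of the negative values among all genes. The Cxcl9 call lay near the threshold, with adjusted p between 0.02464 and 0.1059 when single arrays were left out, and it was lost without any 1 of the 6 AP arrays and without AT SAT replicate 1 or 3. The other 6 members had adjusted p of 0.1324 or more (for Cxcl1, 0.047 without AP VAT replicate 3), which does not show that their depot differences were equal.

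**Figure D3:**
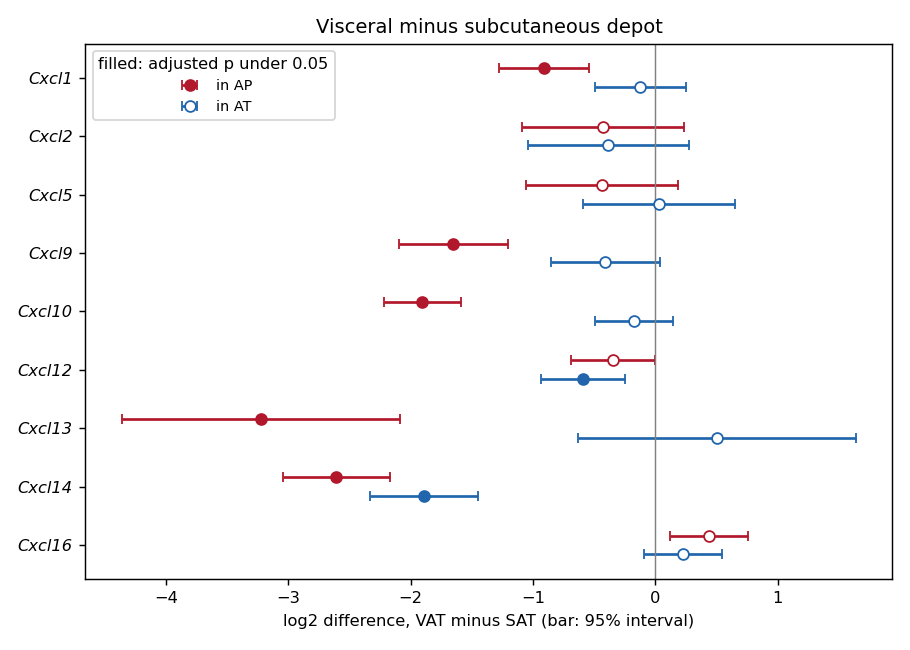
Log2 difference VAT minus SAT for each chemokine in AP and in AT, with 95% intervals from the limma fit; filled points have an adjusted p under 0.05. Cxcl13 reached -3.22 and Cxcl10 -1.90 in AP while their intervals in AT included 0, and Cxcl14 was below 0 in both.

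Among the receptors that signal for these ligands, none was called higher in AP, but 3 of 6 were in VAT when arrays were scaled to housekeeping genes, a scaling under which 53.7% of all genes were called higher there. Cxcr4, the receptor of Cxcl12, measured 6.57, 6.27 and 6.32 in AP VAT and 6.19, 6.43 and 6.46 in AP SAT, against 6.78, 6.94 and 6.70 in AT VAT and 7.04, 6.92 and 6.70 in AT SAT. All AP arrays lay below all AT arrays. Cxcr4 was lower in AP by 0.42 in VAT (SE 0.125, limma adjusted p = 0.01663) and by 0.53 in SAT (SE 0.125, adjusted p = 0.003575), the opposite direction to Cxcl12 itself. The VAT value shrank to -0.05 (adjusted p = 0.745) under the housekeeping scaling, and lost its call under quantile normalization (-0.33, adjusted p = 0.0538) and without AP VAT replicate 2 or 3 or AT VAT replicate 2 (adjusted p 0.051 to 0.0724). Cxcr5, the receptor of Cxcl13, was lower in AP in VAT by 0.39 (adjusted p = 0.01212, or 0.911 at -0.02 under that scaling) and differed by -0.09 in SAT (adjusted p = 0.6106). In all, 2 of 6 such receptors were lower in AP in VAT and 1 of 6 in SAT, 0 were higher in either, and 0 were called between depots in AP or in AT. The shares of all genes called lower were 16.8% in VAT and 16.3% in SAT, so these counts are near the background. The count in VAT was 1 without AP VAT replicate 2 or 3 or AT VAT replicate 2, and that in SAT was 2 without AT SAT replicate 3.

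The atypical receptors bind chemokines without the usual signal and clear or present them. They were higher in AP for 3 of 4 genes in each depot, against 15.8% of all genes in VAT and 16.1% in SAT. These were Ackr2 and Ackr3 in both, Ackr4, near background in every group, in VAT and Ackr1 in SAT. Ackr3, which binds Cxcl12, measured 7.84, 7.84 and 7.98 in AP VAT and 8.65, 8.67 and 8.63 in AP SAT, against 6.34, 6.64 and 6.62 in AT VAT and 6.24, 6.30 and 6.99 in AT SAT. All AP arrays lay above all AT arrays. Ackr3 was higher in AP by 1.35 in VAT (SE 0.161, adjusted p = 7.918e-06) and by 2.14 in SAT (adjusted p = 5.419e-08). Ackr2, known mainly as a scavenger of CC chemokines, was higher by 1.17 in VAT (SE 0.186, adjusted p = 0.0001317) and by 1.69 in SAT (adjusted p = 3.06e-06). Ackr1, which binds many inflammatory chemokines on venules and red cells, measured 6.31, 6.14 and 6.13 in AP VAT and 8.07, 7.90 and 8.34 in AP SAT, against 6.07, 5.99 and 5.35 in AT VAT and 6.52, 6.49 and 6.80 in AT SAT. As with Cxcl10, the AP SAT arrays stood alone at the top, and so they did for Ackr2 and Ackr3. Between depots in AP, 3 of the 4 genes were lower in VAT and 1, Ackr4, was higher, against 2.6% and 3.03% of all genes. Under the housekeeping scaling 2 were lower and 1 higher, against 1.33% and 3.51%. VAT minus SAT was -1.91 for Ackr1 in AP (SE 0.171, adjusted p = 3.597e-06) and -0.80 in AT (adjusted p = 0.01201).

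Of 6 further ligands of the family, 0 were called higher and 1 lower in AP in VAT, and 0 higher and 3 lower in SAT, where the shares of all genes called lower were 16.8% and 16.3%. The count in SAT was 1 under the housekeeping scaling, without dim genes, and without AP SAT replicate 1 or 2 or AT SAT replicate 1. That in VAT was 2 with the compared groups alone or without AT SAT replicate 1, and under the housekeeping scaling 2 were higher and 1 lower. Pf4, the platelet and macrophage chemokine Cxcl4, averaged 4.31 ± 0.136 in AP VAT and 4.52 ± 0.430 in AP SAT, against 7.35 ± 0.364 in AT VAT and 7.26 ± 0.679 in AT SAT (SD, n = 3 each). It was lower in AP by 3.04 in VAT (limma adjusted p = 5.298e-07) and by 2.74 in SAT (adjusted p = 1.477e-06). Cxcl3, the ELR gene that lies between Cxcl5 and Cxcl1 on chromosome 5, was near background, with means of 2.92 in AP SAT and 3.59 in AT SAT.

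Of 11 measured genes of NF-kappaB signalling and its feedback, 8 were higher and 1 lower in AP in VAT, and 7 higher and 0 lower in SAT. Their medians were 0.65 and 0.67. Of all genes, 15.8% were higher and 16.8% lower in VAT, and 16.1% and 16.3% in SAT. Nfkbiz, an atypical inhibitor-like cofactor of NF-kappaB, was higher by 2.50 in VAT (SE 0.199, limma adjusted p = 1.1e-07) and by 3.17 in SAT (adjusted p = 8.066e-09). Tnfaip3, the feedback inhibitor A20, was higher by 1.76 in VAT (adjusted p = 6.361e-06) and by 2.45 in SAT (adjusted p = 1.811e-07). Of 11 inducers and their receptors, 4 were higher and 0 lower in VAT, and 7 higher and 1 lower in SAT. The shares of all genes just given stand beside these counts too. Under the housekeeping scaling 8 of the 11 were higher in VAT, against 53.7% of all genes. The interleukin-1 receptor Il1r1 led with 1.54 in VAT (adjusted p = 4.975e-06) and 1.86 in SAT (adjusted p = 6.36e-07), and its VAT minus SAT difference in AP was -1.01 (adjusted p = 0.001884). These genes moved beside the dissociation and immediate early list described above, which shares no gene with them, and the part of the dissociation in their values was not tested.

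For interferon signalling, 2 of 11 measured genes were higher and 3 lower in AP in VAT, and 5 higher and 3 lower in SAT, against 15.8% of all genes higher and 16.8% lower in VAT and 16.1% and 16.3% in SAT. The 5 called in VAT were 3 without AP VAT replicate 1 or AT VAT replicate 2, and under the housekeeping scaling 7 were higher and 0 lower there, against 53.7% and 7.83% of all genes. Irf1, the interferon-induced transcription factor, was higher by 1.35 in VAT (SE 0.117, limma adjusted p = 2.668e-07) and by 1.76 in SAT (adjusted p = 1.359e-08). Between depots 2.6% of all genes were lower in VAT in AP and 3.03% higher, while 3 of the 11 were lower and 0 higher. These included Irf1 (-0.91, adjusted p = 0.0001152) and Stat2 (-0.88, SE 0.141, adjusted p = 0.0008878), a transcription factor of type I interferon signalling, on the arrays where Cxcl9 and Cxcl10 were lower too. Irf1 was also called lower in VAT in whole tissue (-0.50, or adjusted p = 0.0673 with the compared groups alone), where neither Cxcl9 nor Cxcl10 was called. Cxcl11, set below this list with Cxcl9 and Cxcl10, averaged 4.33 in AP VAT and 4.16 in AP SAT and was not called. A link between these genes was not tested. Interferon gamma itself, Ifng, differed by 0.28 in VAT and 0.08 in SAT between AP and AT, with adjusted p of 0.07024 and 0.6638.

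Of 5 lymphotoxin pathway genes, which act above Cxcl13 in lymphoid stroma, 3 were higher in AP in VAT and 2 in SAT, against 15.8% and 16.1% of all genes, and 0 were called between depots in AP or in AT. The 3 in VAT were 1 under quantile normalization, with the replicate number as a fixed block, with the compared groups alone, and without AP VAT replicate 1 or 2 or AT VAT replicate 2 or 3. The lymphotoxin receptor Ltbr was higher by 0.62 in SAT (adjusted p = 7.272e-05) and differed by -0.22 between the depots' progenitors (adjusted p = 0.2563), beside the Cxcl13 difference of -3.22. Of 11 proteases and proteoglycans that trim, shed or hold CXC chemokines, 5 were higher and 2 lower in AP in VAT. In SAT 6 were higher and 2 lower. Of all genes, 15.8% were higher and 16.8% lower in VAT, and 16.1% and 16.3% in SAT. Mmp2 and Mmp14, which cleave matrix and also Cxcl12, were higher by 2.43 and 2.17 in VAT and by 1.96 and 2.12 in SAT, and Mmp9 was lower by 1.96 in VAT and by 2.17 in SAT. Dpp4, which clips Cxcl9, Cxcl10 and Cxcl12, was lower in VAT than in SAT by 1.35 in AP (SE 0.277, limma adjusted p = 0.006946). Dpp4 also marks a class of progenitors and stood in the progenitor marker list. Of that list 5 of 11 genes were lower and 0 higher in AP VAT than in AP SAT, against 2.6% and 3.03% of all genes. The summed progenitor markers were 14.62 to 14.68 in AP VAT and 14.98 to 15.06 in AP SAT. Adam10, the sheddase of Cxcl16, was lower in AP by 0.44 in VAT (adjusted p = 0.01517, or 0.663 under the housekeeping scaling, 0.0667 without AP VAT replicate 2 and 0.0816 without AT VAT replicate 2) and by 0.61 in SAT (adjusted p = 0.001558).

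**Figure D4:**
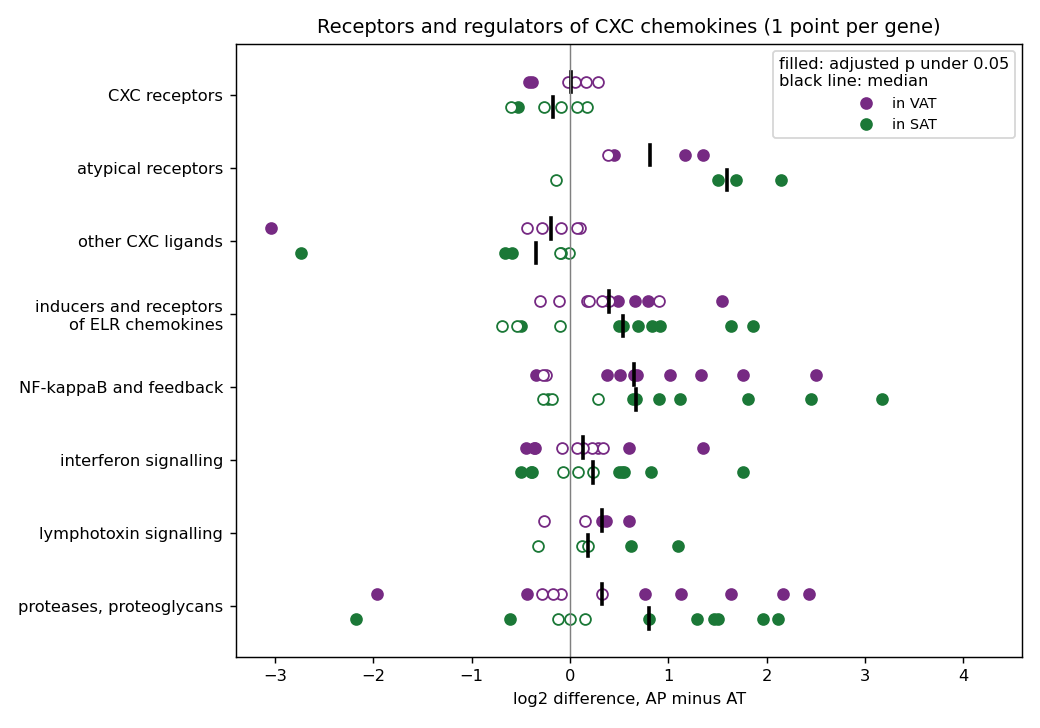
Log2 difference AP minus AT of the genes around the CXC chemokines, 1 point per gene and 1 row per list, in VAT and in SAT; filled points have an adjusted p under 0.05 and black bars are medians. Atypical receptors and NF-kappaB genes lay mostly right of 0, and the signalling receptors around it.

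The members varied among themselves in how evenly replicates matched. The pooled SD within groups was 0.202 for Cxcl10, 0.204 for Cxcl16, 0.227 for Cxcl12 and 0.252 for Cxcl1. It was 0.313 for Cxcl14 and 0.318 for Cxcl9, and 0.464 for Cxcl5, 0.496 for Cxcl2 and 0.875 for Cxcl13. The last 3 exceeded the SD of over 99% of genes, and for Cxcl5 and Cxcl2 single arrays made up most of it.

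Likeness between genes was measured as the root mean square difference over the 12 arrays, after each gene was centred on its own mean. The smallest value marks the likest profile, and the 3 likest named genes were taken for each member. Cxcl1 was most like Myc (0.380), Klf4 (0.382) and Adamts4 (0.388), where Cxcl1 itself had a root mean square of 1.92 around its mean. Cxcl9 was most like Pparg (0.384), Mme (0.401) and Ppa1 (0.405). For Cxcl10 the closest genes were Itgb7 (0.269), Arsi (0.323) and Emx2 (0.326), and for Cxcl12 they were Lgi2 (0.195), Mfap2 (0.209) and Pknox2 (0.221). Cxcl14 was closest to Plac8 (0.432), H2-M9 (0.451) and Il1rl2 (0.486). For Cxcl13 the closest genes were Usp18 (0.768), Adgrg6 (0.778) and Itgb7 (0.788), beside its own root mean square of 1.43. Cxcl2 was nearest to Lsamp (0.297), Ccl3 (0.318) and Tnf (0.324), Cxcl5 to Mcoln2 (0.222), Ctps (0.255) and Sel1l3 (0.268), and Cxcl16 to Pkdcc (0.125), Cyfip2 (0.127) and Nr2f1 (0.139). These are descriptions over 12 arrays of 4 groups and were not tested.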

How the data were processed

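RNA of 12 samples, 3 in each of 4 groups, was hybridised to Affymetrix mouse arrays. The authors deposited 1 log2 intensity per probe set and array, summarised with RMA in Affymetrix Expression Console 1.3.0.187, per the submitters' processing notes. They were used as deposited. Of 41345 probe sets, 23521 had 1 gene in the platform annotation, 1814 several and 16010 none. A gene with several probe sets (1082 genes) kept the one with the highest mean, which left 22180 genes and 9 chemokines.

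The tool limma 3.58.1 (R 4.3.3) fitted group means over all 12 arrays with a common spread (8 residual and 6.84 prior degrees of freedom). Tests were 2-sided, with Benjamini-Hochberg adjustment over all genes, and adjusted p under 0.05 made a call. The fit was tested on simulated data. The number of arrays limits the precision. Fold sizes are 2 to the power of the log2 difference.

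The 9 members and the lists of receptors, regulators and markers were chosen with earlier results of these data known. All members are named in every contrast. For each pathway list and contrast, the rule named at most 2 called genes that were highest and 2 that were lowest by difference. Ifng and the values of listed genes in contrasts where they were not called were added after their values were seen.

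Over all groups, same-numbered samples did not deviate together (correlations of -0.2796 to 0.1594 over 18 pairs), so the numbers were not taken as pairs. Between AP SAT and AP VAT, however, the same-numbered correlations were all positive (0.0205, 0.1178 and 0.0867). Those of unlike numbers there ran from -0.1792 to 0.0835. A shared source of same-numbered samples is not excluded by this. Alternatives were quantile normalization, scaling to 11 housekeeping genes, the mean over probe sets, a filter on dim genes, the compared groups alone, another variance model, replicate blocks and leaving out each array. Promoters were read from RefSeq, GRCm38.p6. Listed genes without a probe set of their own were not analysed here.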

Additional observations from a re-analysis of the deposited data

Results flagged for a closer look

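The depot difference (VAT minus SAT) was unequal in progenitors and whole tissue by the interaction test of limma for 3 chemokines and 1 receptor. For Cxcl13 it was lower in AP than in AT by an interaction value of -3.73, and this was lost (adjusted p = 0.121) when the variance was modelled as a trend with robust weights. For Cxcl10 the interaction value was -1.73. For Cxcl9 it was -1.24, with the call near the threshold as given above. For the atypical receptor Ackr1 it was -1.11 (SE 0.242, adjusted p = 0.02658), and the adjusted p ranged from 0.003025 to 0.07766 when single arrays were left out, above 0.05 without AP SAT 1 or 3, AP VAT 2 or 3, AT SAT 1 or 2, or AT VAT 1 or 2, and 0.0743 under housekeeping scaling.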

How the results depend on the processing

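The values of the 9 chemokines were recomputed under 20 settings, 12 of which leave out 1 array. Of 1062 recomputed values, 1000 kept their direction and their side of the threshold. Part of these had little room to change. Each chemokine had 1 probe set, so the mean over probe sets left its intensities as they were. Leaving out an array of a group outside a contrast kept the difference and altered only the spread. Of 531 values that were called, 22 lost the call and 0 changed sign, and 26 others gained a call.

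Scaling to housekeeping genes moved the median of all genes to 0.40 in AP minus AT in VAT, 0.13 in SAT, 0.27 over both, 0.13 and -0.14 in VAT minus SAT in AP and AT, and 0.26 in the interaction. The share of genes called for AP against AT in VAT became 61.6%, with 11917 higher and 1736 lower genes, against 3507 and 3732 as deposited. Over both depots the split was 11309 to 2738, against 4890 to 4540. In VAT minus SAT it was 779 to 296 in AP (673 to 577 as deposited) and 278 to 584 in AT (621 to 388), and in the interaction 516 to 71 (219 to 257). Under it the AP against AT counts of the chemokines became 6 higher and 1 lower in VAT, and 7 higher and 1 lower in SAT. Between AP depots 1 chemokine was higher and 5 were lower in VAT, against 3.51% and 1.33% of all genes. Also under it, 3 signalling receptors were called higher in AP in VAT. Ikbkg and Ifngr1 changed sign in VAT, to 0.02 and 0.0067. The 11 housekeeping genes themselves differed as deposited. In VAT 6 were lower and 1 higher in AP than in AT (median -0.40), and in SAT 3 were lower and 2 higher (median -0.17). Of all genes, 16.8% were lower and 15.8% higher in VAT, and 16.3% and 16.1% in SAT. A call gained or lost under this scaling includes that shift of the housekeeping genes.

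Fitting the compared groups alone gave 2.71% of all genes for the tissue depots, and leaving out dim genes gave 3.44% for the interaction. The replicate number as a random block left 1 chemokine called between tissue depots (Cxcl12 adjusted p = 0.0646) and took Cxcl9 to 0.0658 in the interaction, which was also lost under quantile normalization (0.0727) and housekeeping scaling (0.0522). As a fixed block it took Cxcl2 over both depots to 0.0495. Over all groups the numbers did not behave as pairs, as 5 of 12 arrays correlated best with their own number. Such a count cannot decide whether same-numbered samples came from the same mice or pools. Fitting the compared groups alone gave Cxcl13 for AP minus AT in VAT an adjusted p of 0.0288, and over both depots Cxcl13 passed the test without AT SAT replicate 3 (0.00189) or AT VAT replicate 2 (0.0412), and Cxcl2 without AP VAT 3, AT SAT 1 or AT VAT 3 (0.000533 to 0.0432).

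Leaving out single arrays, 4 to 6 chemokines were called for AP against AT in VAT, 6 to 8 in SAT and 6 to 7 over both; 5 between AP depots, 1 to 2 between AT depots and 2 to 3 in the interaction. All genes called ranged from 27.2 to 33.5%, 27.5 to 33.1%, 38.9 to 43.5%, 3.83 to 6.19%, 2.98 to 4.63% and 1.19 to 2.82% in the same order.

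Some uncalled differences changed sign. When single arrays were left out, Cxcl5 between AP depots ranged from -0.7317 to 0.0833 (positive without AP SAT replicate 3). Between AT depots Cxcl1 ranged from -0.21 to 0.01, Cxcl2 from -0.64 to 0.0817, Cxcl5 from -0.05 to 0.0667 and Cxcl13 from -0.2733 to 1.2417 (without AT SAT replicates 2 and 3). In the interaction Cxcl2 ranged from -0.5083 to 0.2133 and Cxcl5 from -0.7583 to 0.0567. Housekeeping scaling took Cxcl5 between AT depots to -0.1133 and Cxcl2 in the interaction to 0.2233. The cause was not tested. The low signal of Cxcl5 limits what can be said of it.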
